A study of Mus musculus with 32 samples.

Results

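Leukocyte marker genes are genes used to recognise white blood cells by their messenger RNA. In whole kidneys of mice with polycystic kidney disease, 48 of them were examined. Some of the 48, such as *Cd14*, *Lgals3*, *Plac8* and *Arg1*, are also made by other cells. The 48 were taken from a fixed list of mouse symbols for macrophages, monocytes, neutrophils, T cells, B cells and natural killer cells, by symbol and not by a cutoff on their levels but with earlier results of these data known, and all 48 were found among the 53700 genes of the deposited count table. Of these, 30 mark macrophages or monocytes, 4 mark leukocytes in general, 6 mark T cells, 3 mark B cells, 3 mark cytotoxic lymphocytes and 2 mark neutrophils. A read was counted in all 32 kidneys for 44 of the 48 markers, the exceptions being *Arg1*, *Cd3e*, *Gzmb* and *S100a8*. A filter that kept genes over a log2 CPM (CPM is the count scaled to library size) of 1 in 8 or more of the 32 kidneys left 34 of the 48 markers for the tests.

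The series is RNA sequencing of kidneys from male C57BL/6 mice of the iKspCre-Pkd1del line, in which a tamoxifen-inducible Cre under the kidney-specific cadherin promoter acts in the tubular epithelium and *Pkd1* carries LoxP sites. There were 8 wildtype, 12 PKD and 12 PKD + Salsalate kidneys. PKD mice received tamoxifen at 150 mg/kg on postnatal days 18 and 19, stayed on normal chow and were 95 days old. PKD + Salsalate mice received the same tamoxifen, were 95 days old as well and ate chow with 2.5 g/kg salsalate, a prodrug of salicylate, from day 81 for 2 weeks. Wildtype mice were uninduced animals of the same line that received neither tamoxifen nor salsalate, and their labelled age was 109 days. Wildtype and PKD kidneys therefore differed in tamoxifen and in age as well as in *Pkd1*, and the study chose mildly cystic animals for both PKD groups and had removed animals with end-stage renal disease. The deletion was limited to tubular cells, so leukocytes were not its target.

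Macrophages of the kidney come partly from embryonic precursors that renew in place and partly from monocytes that leave the blood through the chemokine receptor CCR2. They need signals through the CSF1 receptor and the transcription factor PU.1, engulf debris, and in cystic disease gather around cysts, where they are known to favour growth of the epithelium. T and B lymphocytes and neutrophils can enter the injured kidney and mark adaptive and acute inflammation, respectively. In RNA from a whole kidney, fewer cells of a type and less RNA per cell cannot be told apart.

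The total count on genes was 11193136 to 109807664 per kidney. Collecting duct and proximal tubule markers were present in all kidneys, with the 6 proximal tubule genes adding up to 6584 to 12665 CPM in wildtype and 7512 to 10078 CPM in PKD kidneys. *Pkd1* itself was counted over the whole gene, which includes sequence outside the deleted exons and does not check the deletion, and its level was 68.7 ± 10.9 CPM in wildtype, 92.1 ± 15.1 CPM in PKD and 92.7 ± 15.1 CPM in PKD + Salsalate kidneys (SD, n = 8, 12 and 12). Libraries of 5 wildtype kidneys have names ending in R. Those of the 3 others and of all PKD and PKD + Salsalate kidneys do not. Of the 13961 tested genes, 24.4% were higher and 23.7% lower in the R set than in the other wildtype set. Values against each set are therefore given for many of the markers. The 6 proximal tubule genes added up to 6584 to 9127 CPM in the R set and 10993 to 12665 CPM in the other wildtype set. The latter range lay above every PKD kidney. Liver transcripts were high in PKD 10, with *Alb* at 1930 CPM against 1.77 to 3.61 CPM in the other PKD kidneys, and its 5 Kupffer cell genes added up to 56.5 CPM against 0.31 CPM or less in the other PKD kidneys.

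Macrophage and monocyte markers were higher in the PKD kidneys than in wildtype, and lymphocyte and neutrophil markers were low in all groups. Of the 34 tested markers, 31 were higher, 0 were lower and 3 were not called in PKD against wildtype by edgeR's quasi-likelihood test with Benjamini-Hochberg adjustment over the 13961 genes tested at a threshold of 0.05, which also gives every edgeR adjusted p below. Over all 13961 genes, 24.1% were called higher and 25% lower, and their median log2 fold change was −0.01 against 1.17 for the tested markers. For 22 of the 34 markers, the lowest PKD kidney lay above the highest wildtype kidney, as it did for 5.21% of all tested genes. Among the 30 macrophage and monocyte markers, 27 were tested and 26 of them were higher, and the log2 fold changes of the 27 ran from 0.31 to 2.72. *Trem2*, *Itgam*, *C5ar1* and *Gpnmb* passed the filter although no wildtype kidney exceeded 2 CPM, so a higher level in the cystic groups was a condition of their test. *Ms4a7*, *Fcgr1*, *Cd8a* and *Cd4* exceeded 2 CPM in few wildtype kidneys and passed mainly through the cystic groups.

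**Figure D1:**
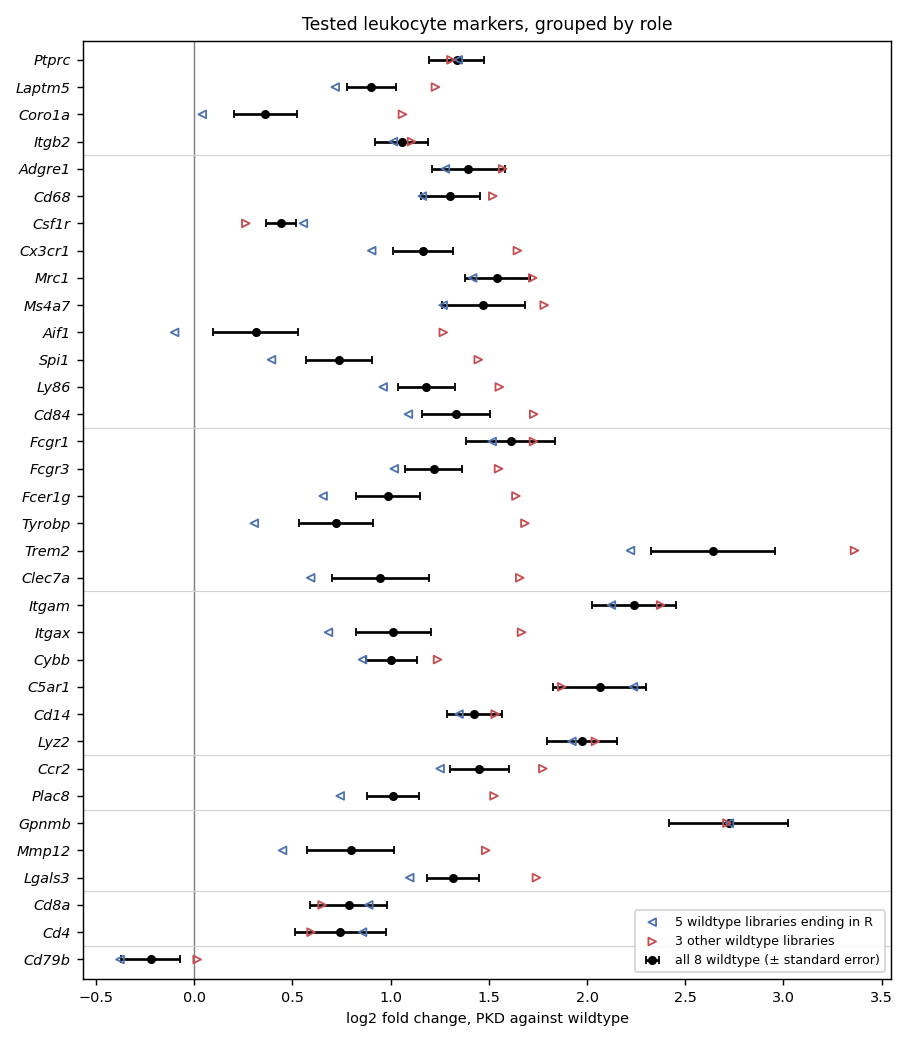
Log2 fold changes of PKD over wildtype kidneys are plotted for the 34 tested markers, grouped by role, as black points with standard error bars for all 8 wildtype kidneys and as open triangles for the 5 R libraries (left-pointing) and the 3 others (right-pointing). *Trem2* at 2.64 and *Gpnmb* at 2.72 lie farthest to the right, and *Coro1a*, *Aif1* and *Cd79b* lie closest to 0.

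Pan-leukocyte markers were higher in PKD kidneys for 3 of 4 genes. *Ptprc* (chr1:137990599-138103446, GRCm39), which encodes the phosphatase CD45 of all nucleated blood cells, had lowest, median and highest levels of 8.18, 15.4 and 23.3 CPM in wildtype, 32.4, 40.1 and 51.5 CPM in PKD and 23.9, 34.8 and 48.4 CPM in PKD + Salsalate kidneys. Every PKD and every PKD + Salsalate kidney lay above every wildtype kidney, and the PKD level was higher with a log2 fold change of 1.34 (SE 0.14, edgeR adjusted p = 1.65e-09). The log2 fold change was 1.34 against the R set and 1.31 against the other set. *Itgb2* (chr10:77366086-77401542), the beta chain of the leukocyte integrins, had 3.94, 7.53 and 9.14 CPM in wildtype, 11.0, 14.6 and 18.3 CPM in PKD and 9.62, 13.6 and 17.9 CPM in PKD + Salsalate kidneys. The wildtype range did not reach either cystic group, and *Itgb2* was higher in PKD with a log2 fold change of 1.06 (SE 0.13, edgeR adjusted p = 9.19e-08). *Laptm5* (chr4:130638161-130663452), a lysosomal membrane protein of blood cells, went from 27.7 ± 6.74 CPM in wildtype to 51.6 ± 6.30 CPM in PKD kidneys (SD, n = 8 and 12), a log2 fold change of 0.90 (SE 0.12, edgeR adjusted p = 3.92e-07). *Coro1a* (chr7:126298942-126307022), an actin-binding protein of leukocytes, had 16.2, 31.3 and 52.7 CPM in wildtype, 31.9, 41.8 and 55.3 CPM in PKD and 27.4, 43.5 and 50.7 CPM in PKD + Salsalate kidneys. The groups overlapped, and the log2 fold change of 0.36 (SE 0.16, edgeR adjusted p = 0.0612) did not pass the threshold. Against the 3 wildtype libraries without R the *Coro1a* value was 1.06 (edgeR adjusted p = 1.23e-05) and against the 5 R libraries 0.04 (edgeR adjusted p = 0.816). Leaving out wildtype 3, wildtype 5 or PKD 10 alone brought *Coro1a* past the threshold, with log2 fold changes of 0.49, 0.49 and 0.39.

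Macrophage identity markers were higher for 9 of 10 tested genes of 11 listed, and the log2 fold changes of the 10 ran from 0.31 to 1.54. *Mrc1* (chr2:14234151-14336926), the mannose receptor CD206, had lowest, median and highest levels of 2.35, 3.71 and 5.69 CPM in wildtype, 8.66, 11.5 and 14.4 CPM in PKD and 6.55, 9.00 and 18.7 CPM in PKD + Salsalate kidneys. The ranges of wildtype and PKD did not overlap, and the log2 fold change was 1.54 (SE 0.16, edgeR adjusted p = 2.45e-09). *Cd68* (chr11:69555037-69557067), a lysosomal glycoprotein of macrophages, had 3.11, 3.78 and 5.59 CPM in wildtype, 6.24, 10.8 and 13.8 CPM in PKD and 7.31, 8.74 and 14.0 CPM in PKD + Salsalate kidneys. PKD kidneys again lay above the whole wildtype range, with a log2 fold change of 1.30 (SE 0.15, edgeR adjusted p = 1.32e-08). *Ly86* (chr13:37529184-37603012), which encodes MD-1, a partner of a Toll-like receptor relative, had 3.59, 4.91 and 9.05 CPM in wildtype, 10.0, 11.7 and 15.3 CPM in PKD and 6.37, 9.15 and 14.0 CPM in PKD + Salsalate kidneys. The lowest PKD kidney stood above the highest wildtype kidney while some PKD + Salsalate kidneys did not, and *Ly86* was higher in PKD with a log2 fold change of 1.18 (SE 0.14, edgeR adjusted p = 3.91e-08). *Cd84* (chr1:171667263-171720036), a self-binding receptor of the SLAM family, was at 2.49 ± 1.02 CPM in wildtype and 6.17 ± 0.776 CPM in PKD kidneys, with a log2 fold change of 1.33 (SE 0.17, edgeR adjusted p = 1.22e-07).

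*Adgre1* (chr17:57665573-57790527), which encodes the macrophage surface protein F4/80, had 2.68, 3.91 and 6.90 CPM in wildtype, 6.70, 10.8 and 16.9 CPM in PKD and 7.80, 9.84 and 21.2 CPM in PKD + Salsalate kidneys. Only 1 PKD kidney, PKD 4 at 6.70 CPM, fell below the highest wildtype kidney, and the log2 fold change was 1.39. *Cx3cr1* (chr9:119877749-119898945), the fractalkine receptor of resident phagocytes, rose by 1.17 on the log2 scale (0.90 against the R set, 1.65 against the other) and *Ms4a7* (chr19:11298403-11313510), a membrane protein of macrophages, by 1.47. *Csf1r*, the receptor that keeps macrophages alive, was the most abundant macrophage marker in wildtype kidneys at 80.0 ± 12.6 CPM and reached 109 ± 7.00 CPM in PKD kidneys. Its log2 fold change of 0.44 was the smallest of the macrophage markers that were higher, although no PKD kidney overlapped the wildtype range. *Csf1r* was lower in the R set than in the other wildtype set (log2 fold change −0.31, edgeR adjusted p = 0.0177), and its PKD value was 0.56 against the first and 0.26 against the second. *Spi1* (chr2:90912562-90946101), which encodes PU.1, was at 10.1 ± 4.53 CPM in wildtype and 16.6 ± 2.40 CPM in PKD kidneys, a log2 fold change of 0.74 that was 0.39 against the R set and 1.45 against the other.

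*Aif1* (chr17:35387384-35395053), which encodes the calcium-binding protein IBA1, was the tested macrophage marker that was not called. Its levels were 2.48, 4.96 and 12.6 CPM in wildtype, 6.47, 7.41 and 10.7 CPM in PKD and 4.69, 6.80 and 10.9 CPM in PKD + Salsalate kidneys. The wildtype kidneys spanned the whole PKD range, and the log2 fold change of 0.31 (SE 0.22, edgeR adjusted p = 0.234) did not pass the threshold. The 5 R libraries held 4.09 to 12.6 CPM and the 3 others 2.48 to 3.99 CPM, so the sets of wildtype kidneys did not overlap. Against the R set the *Aif1* value was −0.10 (edgeR adjusted p = 0.676) and against the other set it was 1.27 (edgeR adjusted p = 3.25e-05). Without wildtype 5 alone it was 0.52 and passed the threshold (edgeR adjusted p = 0.0432).

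**Figure D2:**
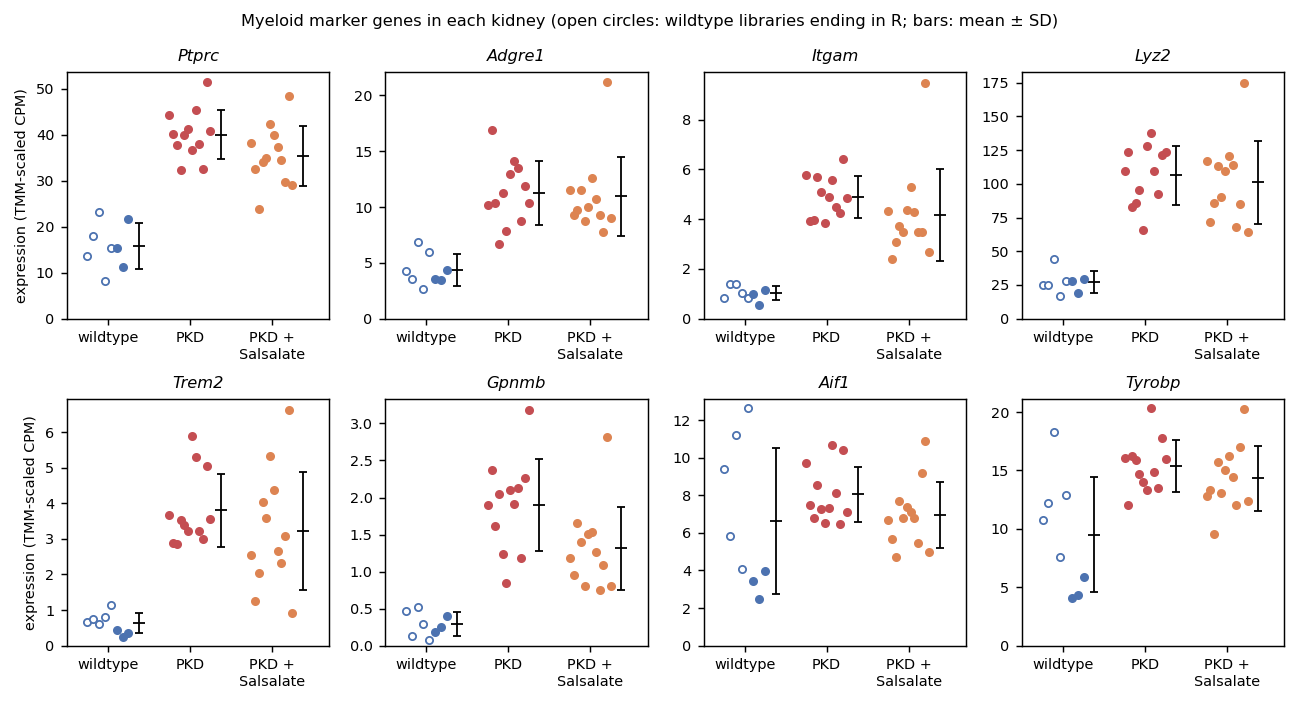
Each point is the level of a marker in 1 kidney in TMM-scaled CPM on a linear axis from 0, with open circles for the 5 wildtype libraries ending in R and bars for the mean and SD of each group. Every PKD kidney lies above every wildtype kidney for *Ptprc*, *Itgam*, *Lyz2*, *Trem2* and *Gpnmb*, while for *Aif1* and *Tyrobp* the R libraries reach into the PKD range.

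The promoters of 3 members were read from the GRCm39 genome as the 250 bases before the start of the canonical transcript, in the direction of the gene. They are shown because PU.1, the product of *Spi1*, is known to bind purine-rich DNA with the core GAGGAA, and all 3 are genes of the myeloid lineage that were higher in PKD kidneys. Capitals mark GAGGAA, or TTCCTC where it lies on the other strand.
Spi1, chr2:90926191-90926440, plus strand: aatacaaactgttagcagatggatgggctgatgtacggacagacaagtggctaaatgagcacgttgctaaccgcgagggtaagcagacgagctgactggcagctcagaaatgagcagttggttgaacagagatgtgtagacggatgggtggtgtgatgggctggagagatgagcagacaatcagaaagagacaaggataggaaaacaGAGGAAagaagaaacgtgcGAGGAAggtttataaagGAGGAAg
Itgam, chr7:127661558-127661807, plus strand: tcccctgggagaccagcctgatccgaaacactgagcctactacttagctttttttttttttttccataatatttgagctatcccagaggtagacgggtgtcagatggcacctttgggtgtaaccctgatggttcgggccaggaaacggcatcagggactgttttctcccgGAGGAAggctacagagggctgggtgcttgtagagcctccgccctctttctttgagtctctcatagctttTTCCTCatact
Trem2, chr17:48653179-48653428, plus strand: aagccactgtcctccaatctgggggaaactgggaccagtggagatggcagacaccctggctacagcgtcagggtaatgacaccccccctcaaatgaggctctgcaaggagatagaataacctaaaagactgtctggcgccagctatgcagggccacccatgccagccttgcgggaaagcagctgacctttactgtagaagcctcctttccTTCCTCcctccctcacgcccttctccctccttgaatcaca
The *Spi1* window held 3 copies within its last 43 bases, *Itgam* held 2, and *Trem2* held 1, between 40 and 35 bases before the start. On either strand the core was present in the windows of 19 of the 48 markers (39.58%), made up of 15 of 36 myeloid or pan-leukocyte genes (41.67%) and 4 of 12 lymphoid or cytotoxic genes (33.33%), and in 4967 of 21613 protein-coding genes (22.98%). These are counts of letters in a window of fixed length, and the 3 windows were picked from the genes with a match after their levels were known.

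Fc receptors and their partners that signal through ITAM motifs were higher in PKD kidneys for 6 of 6 genes. *Fcgr3* (chr1:170878738-170893549), a low-affinity receptor for immunoglobulin G, had lowest, median and highest levels of 4.00, 5.91 and 9.73 CPM in wildtype, 12.8, 14.3 and 20.2 CPM in PKD and 9.98, 13.0 and 21.6 CPM in PKD + Salsalate kidneys. Wildtype and PKD ranges were separate, with a log2 fold change of 1.22 (SE 0.15, edgeR adjusted p = 2.5e-08). *Fcgr1* (chr3:96190225-96201338), the high-affinity receptor, had 0.446, 1.52 and 2.84 CPM in wildtype, 3.72, 4.41 and 6.03 CPM in PKD and 2.55, 3.81 and 7.81 CPM in PKD + Salsalate kidneys. It was higher in PKD with a log2 fold change of 1.61 (SE 0.23, edgeR adjusted p = 6.35e-07). *Trem2* (chr17:48653429-48661175), a lipid-sensing receptor of phagocytes, had 0.254, 0.633 and 1.14 CPM in wildtype, 2.86, 3.46 and 5.88 CPM in PKD and 0.928, 2.87 and 6.62 CPM in PKD + Salsalate kidneys. The lowest PKD kidney held more than the highest wildtype kidney, and the log2 fold change was 2.64 (SE 0.32, edgeR adjusted p = 2.8e-08). The PKD + Salsalate group spread widely for *Trem2*, with PKD + Salsalate 12 inside the wildtype range at 0.93 CPM and PKD + Salsalate 11 above every PKD kidney at 6.62 CPM.

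*Fcer1g* (chr1:171057141-171062219), the common gamma chain of Fc receptors, was at 8.48 ± 3.04 CPM in wildtype and 16.6 ± 2.98 CPM in PKD kidneys, with a log2 fold change of 0.99 (SE 0.16, edgeR adjusted p = 7.59e-06). The R libraries held 8.63 to 13.4 CPM of *Fcer1g* and the others 4.51 to 6.49 CPM, and the log2 fold change was 0.66 against the first and 1.64 against the second. *Tyrobp* (chr7:30113170-30117010), the adaptor DAP12 that passes on the signal of TREM2, had 4.04, 9.19 and 18.3 CPM in wildtype, 12.0, 15.4 and 20.3 CPM in PKD and 9.58, 13.9 and 20.3 CPM in PKD + Salsalate kidneys. The 5 R libraries of the wildtype group held 7.59 to 18.3 CPM of *Tyrobp* and the 3 others 4.04 to 5.88 CPM. Its log2 fold change of 0.72 was 1.68 against the 3 others (edgeR adjusted p = 4.31e-08) and 0.31 against the R set, where it did not pass the threshold (edgeR adjusted p = 0.0765). *Clec7a* (chr6:129438554-129449742), the beta-glucan receptor dectin-1, showed the same split, with 0.95 against all wildtype kidneys, 1.66 against the 3 others and 0.59 against the R set (edgeR adjusted p = 0.0535). Per kilobase of exon, *Tyrobp* was at 22.6 CPM in PKD kidneys and *Fcer1g* at 14.3 CPM, while their partners *Trem2* and *Fcgr1* were at 0.77 and 1.32 CPM. The length used was that of all annotated exons of a gene merged, and these values depend on it. It was 682 bases for *Tyrobp*, 1159 for *Fcer1g*, 4946 for *Trem2* and 3490 for *Fcgr1*.

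Myeloid adhesion and effector genes were higher in PKD kidneys for 6 of 6, with a median log2 fold change of 1.70. *Lyz2* (chr10:117111557-117118346), lysozyme of macrophages and granulocytes, was together with *Csf1r* among the most abundant markers in PKD kidneys and had 17.0, 26.5 and 44.4 CPM in wildtype, 65.6, 109 and 138 CPM in PKD and 64.0, 99.9 and 175 CPM in PKD + Salsalate kidneys. No wildtype kidney reached the lowest kidney of either cystic group, and the log2 fold change was 1.97 (SE 0.18, edgeR adjusted p = 8.19e-11). Reads of *Lyz2* can be shared with its near-identical neighbour *Lyz1*, which leaves its exact level uncertain. *Itgam* (chr7:127661808-127717753), the integrin chain CD11b, had 0.571, 1.02 and 1.40 CPM in wildtype, 3.84, 4.88 and 6.41 CPM in PKD and 2.39, 3.60 and 9.47 CPM in PKD + Salsalate kidneys. PKD and wildtype ranges were far apart, with a log2 fold change of 2.24 (SE 0.22, edgeR adjusted p = 3.19e-10), and the value was 2.12 against the R set and 2.37 against the other.

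*C5ar1* (chr7:15980668-15993465), the receptor for the complement fragment C5a, had 0.379, 0.597 and 1.37 CPM in wildtype, 2.33, 3.24 and 3.89 CPM in PKD and 1.28, 2.53 and 4.90 CPM in PKD + Salsalate kidneys. It was higher in PKD with a log2 fold change of 2.06 (SE 0.24, edgeR adjusted p = 1.12e-08). *Cd14*, a co-receptor for bacterial lipopolysaccharide, had 4.31, 5.37 and 9.04 CPM in wildtype, 10.8, 15.8 and 18.1 CPM in PKD and 9.57, 13.4 and 23.3 CPM in PKD + Salsalate kidneys. Both cystic groups lay above the wildtype range, with a log2 fold change of 1.43 (SE 0.14, edgeR adjusted p = 6.23e-10) for PKD. *Itgax* (chr7:127728668-127749829), the integrin chain CD11c of dendritic cells and macrophages, was higher by 1.01 on the log2 scale, with 0.68 against the R set and 1.67 against the other. *Cybb* (chrX:9301491-9354010), the catalytic chain of the phagocyte NADPH oxidase, was at 10.9 ± 2.63 CPM in wildtype and 21.6 ± 2.60 CPM in PKD kidneys, a log2 fold change of 1.00.

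Recruited monocyte markers were higher for both tested genes of 3 listed. *Ccr2* (chr9:123901982-123913594), the receptor through which monocytes leave bone marrow and enter tissue, had 4.82, 6.05 and 10.2 CPM in wildtype, 14.6, 19.2 and 23.6 CPM in PKD and 11.3, 15.6 and 27.8 CPM in PKD + Salsalate kidneys. Wildtype overlapped neither cystic group, and the log2 fold change was 1.45 (SE 0.15, edgeR adjusted p = 1.6e-09). *Plac8* (chr5:100701591-100720111), a gene of monocytes and other blood cells that some epithelia also express, had 7.11, 13.9 and 18.5 CPM in wildtype, 22.0, 25.4 and 32.7 CPM in PKD and 17.1, 22.1 and 30.4 CPM in PKD + Salsalate kidneys. Its PKD kidneys lay above the wildtype range with a log2 fold change of 1.01 (SE 0.13, edgeR adjusted p = 1.67e-07), which was 0.74 against the R set and 1.53 against the other. *Ly6c2* (chr15:74980003-74988467), which encodes the Ly6C antigen of inflammatory monocytes, did not pass the filter, with 0.997 ± 0.404 CPM in wildtype and 0.928 ± 0.369 CPM in PKD kidneys. Its reads can be shared with the near-identical *Ly6c1* of endothelial cells.

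Markers of activated or lipid-laden macrophages were higher for the 3 tested genes of 4. *Gpnmb* (chr6:49013426-49047863), a glycoprotein of macrophages filled with lipid, had 0.0760, 0.276 and 0.517 CPM in wildtype, 0.845, 1.98 and 3.18 CPM in PKD and 0.752, 1.23 and 2.82 CPM in PKD + Salsalate kidneys. It was read from only 1 to 11 counts per wildtype kidney, and the log2 fold change of 2.72 (SE 0.30, edgeR adjusted p = 6.38e-09) was the largest of the 34. *Gpnmb* was also the marker closest to the filter among those that passed, with 7 kidneys over 2 TMM-scaled CPM (the filter used unscaled log2 CPM with a prior count of 2), while *Cd3g*, the closest of those that failed, had 3. *Lgals3* (chr14:47605208-47623624), galectin-3, which macrophages and injured epithelium both make, had 25.8, 37.8 and 45.9 CPM in wildtype, 74.0, 86.4 and 108 CPM in PKD and 54.3, 77.0 and 119 CPM in PKD + Salsalate kidneys. The 2 cystic groups lay above the wildtype range, with a log2 fold change of 1.32 (SE 0.13, edgeR adjusted p = 7.74e-10). *Mmp12* (chr9:7344381-7369499), macrophage elastase, had 1.59, 2.74 and 5.60 CPM in wildtype, 2.42, 4.81 and 8.74 CPM in PKD and 2.67, 3.78 and 6.69 CPM in PKD + Salsalate kidneys. The groups overlapped, with a log2 fold change of 0.80 (SE 0.22, edgeR adjusted p = 0.00356), and against the R set the value was 0.45 and did not pass (edgeR adjusted p = 0.0987). *Arg1* (chr10:24791118-24803817), arginase of alternatively activated macrophages and of liver, did not pass the filter. It was at 64.8 CPM in PKD 10, the kidney with high liver transcripts, and at 0.26 CPM or less in the other PKD kidneys.

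T cell markers were low, and 2 of 6 passed the filter. *Cd8a* (chr6:71350411-71356157), the co-receptor of cytotoxic T cells, had 0.744, 1.69 and 2.35 CPM in wildtype, 2.01, 2.41 and 5.34 CPM in PKD and 1.48, 2.33 and 3.35 CPM in PKD + Salsalate kidneys. *Cd4* (chr6:124841655-124874758), the co-receptor of helper T cells, had 0.381, 1.28 and 2.65 CPM in wildtype, 1.37, 2.32 and 3.13 CPM in PKD and 1.20, 1.63 and 2.59 CPM in PKD + Salsalate kidneys. The ranges overlapped for both, and both were higher in PKD, *Cd8a* with a log2 fold change of 0.79 (SE 0.20, edgeR adjusted p = 0.00134). Among wildtype kidneys, only wildtype 2 exceeded 2 CPM for *Cd8a* and only wildtype 8 for *Cd4*. Both genes therefore passed the filter mainly through the cystic groups. For *Cd4* the log2 fold change was 0.74 (SE 0.23, edgeR adjusted p = 0.00856), which did not pass against the 3 wildtype libraries without R (0.60, edgeR adjusted p = 0.124). The 3 chains of the CD3 complex, which every T cell needs, did not pass the filter, with PKD means of 1.18 CPM for *Cd3d*, 1.25 CPM for *Cd3e* and 1.68 CPM for *Cd3g* against wildtype means of 1.03, 0.74 and 1.22 CPM. *Cd2*, an adhesion molecule of T and natural killer cells, was at 1.26 CPM in PKD and 1.00 CPM in wildtype kidneys.

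B cell markers were not higher. *Cd79b* (chr11:106202167-106205588), a signalling chain of the B cell receptor, had 1.97, 2.75 and 4.14 CPM in wildtype, 1.5, 2.41 and 2.89 CPM in PKD and 1.78, 2.44 and 3.37 CPM in PKD + Salsalate kidneys. The ranges overlapped, and the log2 fold change of −0.22 (SE 0.15, edgeR adjusted p = 0.219) did not pass. *Cd79a*, its partner chain, and *Ms4a1*, which encodes CD20, failed the filter at PKD means of 0.95 and 0.29 CPM and wildtype means of 1.39 and 0.44 CPM. The cytotoxic lymphocyte genes *Nkg7*, *Gzma* and *Gzmb* failed it as well, at PKD means of 1.37, 0.41 and 0.28 CPM and wildtype means of 0.99, 0.39 and 0.10 CPM. The neutrophil genes *S100a8* and *S100a9*, the subunits of calprotectin, had PKD means of 0.24 and 0.47 CPM and wildtype means of 0.13 and 0.36 CPM. No kidney of any group held more than 16 counts of *S100a8* or 31 counts of *S100a9*.

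**Figure D3:**
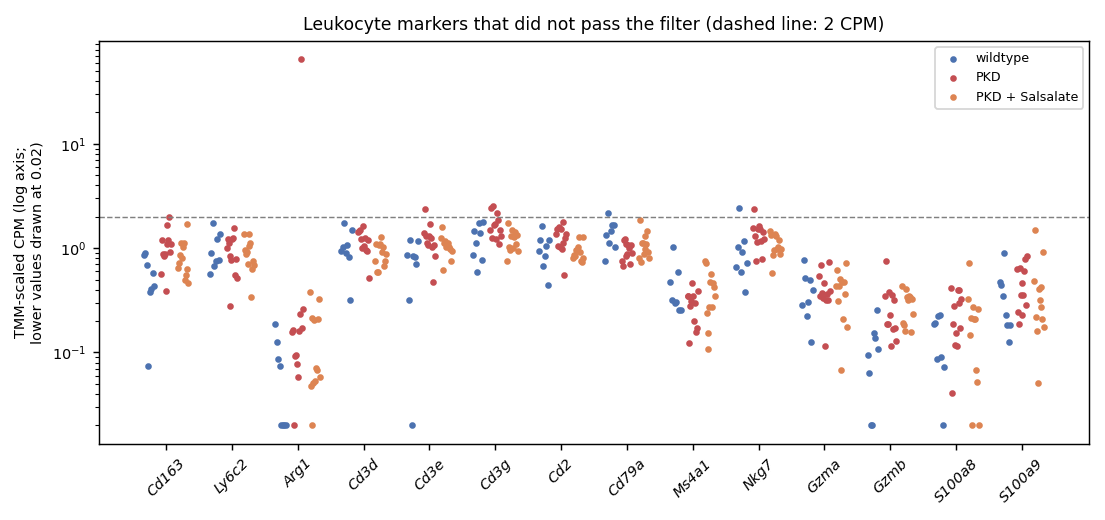
Levels of the 14 markers that did not pass the filter are plotted for each kidney in TMM-scaled CPM on a log axis, with values under 0.02 CPM drawn at 0.02 and the dashed line at 2 CPM. The point at 64.8 CPM is *Arg1* in PKD 10, and for the *Cd3* genes, *Cd2*, *Cd79a* and *Nkg7* the points of the 3 groups overlap, with *Cd3e* running from 0 to 2.39 CPM and *Nkg7* from 0.38 to 2.41 CPM over all kidneys.

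Without any filter on low counts, all 48 markers entered the test, and 35 were higher and 1 was lower in PKD against wildtype, where 12.2% of the 33588 genes with a count were called higher and 11.4% lower. The 4 markers that joined were *Cd163*, a scavenger receptor of macrophages (log2 fold change 1.02, edgeR adjusted p = 0.00911), *Arg1* (6.64, edgeR adjusted p = 0.0023), *Cd3e* (0.78, edgeR adjusted p = 0.0421) and *Gzmb* (1.49, edgeR adjusted p = 0.00613). The lower marker was *Cd79a* (−0.54, edgeR adjusted p = 0.0296). With PKD 10 left out the *Arg1* value was 1.47 and no longer passed (edgeR adjusted p = 0.112). None of *Cd163*, *Arg1*, *Cd3e*, *Gzmb* and *Cd79a* passed against both wildtype sets when each was used alone. Under this setting *S100a8*, *S100a9*, *Ms4a1* and *Gzma* had edgeR adjusted p-values of 0.27, 0.527, 0.258 and 0.937.

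The comparison of PKD with wildtype was repeated against each wildtype set. With only the 5 R libraries, 28 of the 34 markers were higher, where 29.8% of all genes were, and the median log2 fold change was 0.99. With only the 3 other libraries, 32 markers were higher, where 21.6% of all genes were, and the median was 1.56. Of the 31 markers called against all wildtype kidneys, 27 were called against both sets, and the like share of all genes was not calculated. Between the sets themselves, 13 markers were higher in the R set, 1 was lower (*Csf1r*) and 20 were not called. Of all tested genes, 24.4% were higher and 23.7% lower in that comparison. Of the 13, those with the largest differences were *Tyrobp* (1.36), *Aif1* (1.35), *Clec7a* (1.05), *Spi1* (1.04), *Mmp12* (1.02) and *Coro1a* (1.01). The PKD value was also smaller against R than against the others for *Trem2* (2.22 and 3.36), *Lgals3* (1.10 and 1.74), *Cd84* (1.09 and 1.73) and *Ly86* (0.96 and 1.55). What the ending R stands for is not given in the sources used here, and the part of this difference in the comparison with PKD cannot be told apart from the kidneys themselves.

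Across the 34 tested markers, the median log2 level relative to the wildtype mean was 0.90 to 1.37 in the 12 PKD kidneys, 0.52 to 1.42 in the 12 PKD + Salsalate kidneys and −0.73 to 0.57 in the 8 wildtype kidneys. Within groups the same kidneys tended to hold the extremes. Wildtype 3 was the highest wildtype kidney for 21 of the 34 markers and wildtype 7 the lowest for 19. PKD 8 was the highest PKD kidney for 13, and PKD 4 the lowest for 9. PKD + Salsalate 11 was the highest of its group for 28 of 34, PKD + Salsalate 12 was the lowest for 11, and PKD + Salsalate 3 was the lowest for 10. In PKD + Salsalate 11 the 6 markers of injured tubule, among them *Havcr1* and *Lcn2*, also added up to the highest sum of all kidneys, at 3517 CPM.

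The comparison of both cystic groups asks what 2 weeks of salsalate did to the markers, and no leukocyte marker passed the test between PKD + Salsalate and PKD. Of the 34 tested markers 0 were called by edgeR's quasi-likelihood test and 0 by the DESeq2 Wald test, where edgeR called 0.58% of all genes and DESeq2 1.43%. At an unadjusted p under 0.05 there were 5 by edgeR, where 10.3% of all genes were, and 4 by DESeq2, where 10.6% were. The log2 fold change was below 0 for 33 of 34 markers, as it was for 54% of all genes, with a median of −0.16 and a range of −0.50 to 0.06. With 1 kidney left out, 29 to 33 markers were below 0, the fewest without PKD + Salsalate 3, and *Adgre1*, *Csf1r*, *Spi1*, *Cx3cr1* and *Coro1a*, whose values lay near 0, turned positive in at least 1 such fit. All 34 were read in the same 24 kidneys, so the 33 are not separate pieces of evidence.

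The smallest p-values belonged to *Ly86*, *Gpnmb*, *Cybb* and *Cd84*. *Ly86* was at 9.24 ± 2.15 CPM in PKD + Salsalate and 11.8 ± 1.40 CPM in PKD kidneys (SD, n = 12 and 12), with a log2 fold change of −0.35 (SE 0.12, edgeR adjusted p = 0.195, unadjusted p = 0.00597). For *Gpnmb* the levels were 1.32 ± 0.563 and 1.90 ± 0.621 CPM, with a log2 fold change of −0.50 (SE 0.20, edgeR adjusted p = 0.318, unadjusted p = 0.018). *Cybb* was at 18.0 ± 4.23 and 21.6 ± 2.60 CPM, with a log2 fold change of −0.27 (SE 0.11, edgeR adjusted p = 0.323, unadjusted p = 0.0187). *Cd84* was at 4.95 ± 1.29 and 6.17 ± 0.776 CPM, with a log2 fold change of −0.32 (SE 0.14, edgeR adjusted p = 0.387, unadjusted p = 0.0285). For *Ly86* and *Gpnmb*, 11 of 12 PKD + Salsalate kidneys lay below the PKD median, for *Cybb* 10 and for *Cd84* 9. Leaving out PKD + Salsalate 11 brought *Ly86* past the threshold (log2 fold change −0.42, edgeR adjusted p = 0.0494), and leaving out PKD 10, PKD + Salsalate 3 and PKD + Salsalate 11 together did so for *Gpnmb* (−0.79, edgeR adjusted p = 0.0284). Without a filter on low counts *Arg1* was called lower, where 0.25% of all genes were (−5.27, edgeR adjusted p = 0.0271), and without PKD 10 its value was −0.07 (edgeR adjusted p = 0.997).

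For the broad markers the interval of the difference was narrow. The 95% interval of the log2 fold change between PKD + Salsalate and PKD was −0.14 to 0.13 for *Csf1r*, −0.42 to 0.06 for *Ptprc*, −0.35 to 0.26 for *Adgre1* and −0.37 to 0.22 for *Lyz2*. Markers at low levels had wider intervals, such as −0.68 to 0.21 for *Trem2* and −0.76 to 0.03 for *Cd4*. Differences inside these intervals are compatible with the values of 12 kidneys per group, and the smallest detectable difference was not calculated. In the same comparison the 6 injured tubule markers had a median log2 fold change of −0.37 and the 5 fibroblast markers one of −0.10, and the part of either in the leukocyte values was not tested.

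**Figure D4:**
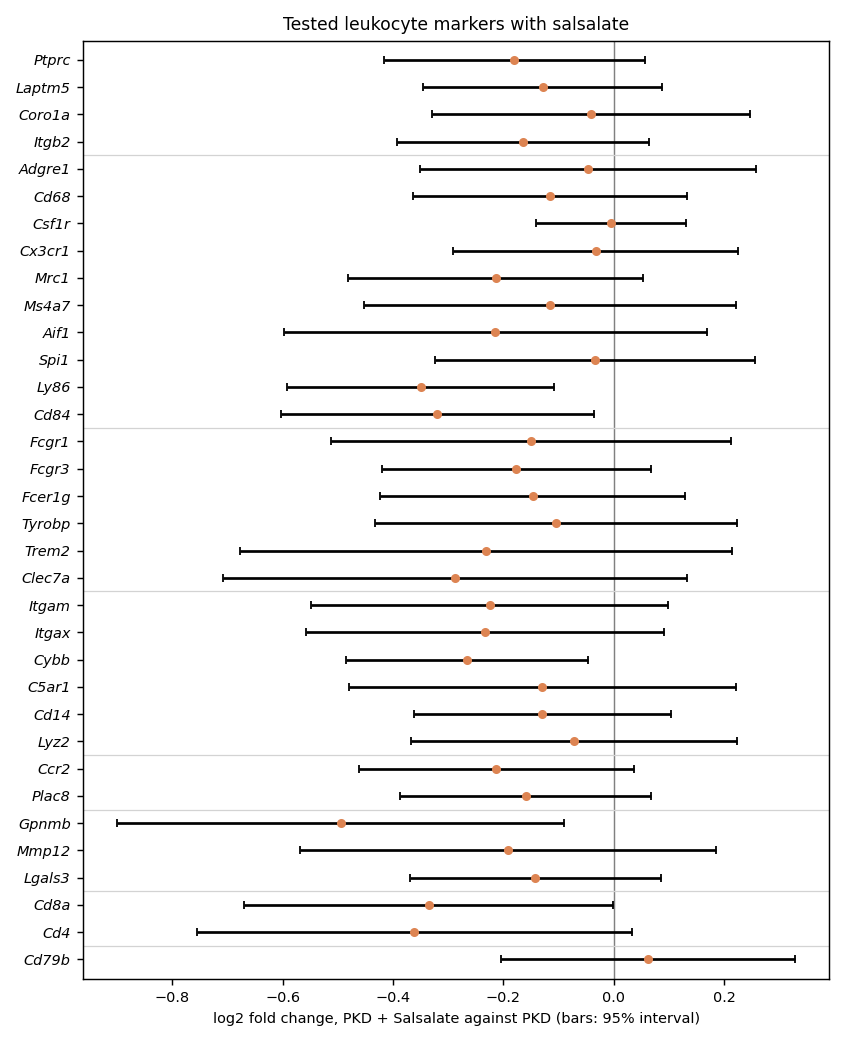
Log2 fold changes of PKD + Salsalate over PKD kidneys are plotted for the 34 tested markers, grouped by role, with the 95% interval as a bar. The points lie left of 0 for 33 markers, between −0.50 and 0.06, and the intervals of 5 markers, *Ly86*, *Cd84*, *Cybb*, *Gpnmb* and *Cd8a*, do not reach 0 before adjustment.

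Against wildtype, 29 of 34 markers were higher in PKD + Salsalate kidneys and 0 were lower, where 21.8% of all genes were higher, with a median log2 fold change of 0.95. For 12 markers the lowest PKD + Salsalate kidney lay above the highest wildtype kidney, as for 4.46% of all genes. These kidneys share the wildtype controls with the PKD comparison. The T cell genes *Cd8a* (0.45, edgeR adjusted p = 0.0626) and *Cd4* (0.38, edgeR adjusted p = 0.185) did not pass, and neither did *Coro1a*, *Aif1* and *Cd79b*. *Trem2* was at 2.41, *Gpnmb* at 2.23, *Itgam* at 2.01 and *Lyz2* at 1.90 on the log2 scale. For *Trem2*, *Gpnmb* and *Itgam*, and for *C5ar1* among the 29, no wildtype kidney exceeded 2 CPM. A higher level in the cystic groups was therefore a condition of their test here as well. *Ms4a7* and *Fcgr1*, also among the 29, passed the filter mainly through the cystic groups. Against the R set 26 markers were higher, where 29.2% of all genes were, and against the other set 31, where 18.5% were.

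*Cd14* and *Lgals3* are also made by injured tubular cells, so their levels were set beside *Ptprc* and beside *Havcr1*, the kidney injury molecule KIM-1 of the proximal tubule, within each cystic group. *Havcr1* had a mean of 0.89 CPM in wildtype and 54.5 ± 19.4 CPM in PKD kidneys (SD, n = 12). Across the 12 PKD kidneys log2 *Cd14* followed log2 *Havcr1* with a Pearson's r of 0.84 and a Spearman's rho of 0.94 (permutation test, p = 0.00015 and 5.0e-05, adjusted over 8 relations p = 0.0004 and 0.00028), and r was 0.83 without the 2 kidneys farthest from the *Havcr1* median. With *Ptprc* the r of *Cd14* was 0.20 and rho 0.35 (permutation test, p = 0.529 and 0.267, adjusted p = 0.605 and 0.305), and r was 0.12 without 2 kidneys. Across the 12 PKD + Salsalate kidneys *Cd14* had an r of 0.89 and a rho of 0.80 with *Havcr1* (permutation test, p = 0.00014 and 0.00307, adjusted p = 0.0004 and 0.00819; r 0.80 without 2 kidneys). With *Ptprc* these were 0.66 and 0.68 (permutation test, p = 0.0192 and 0.0185, adjusted p = 0.0383 and 0.037; r 0.66 without 2 kidneys).

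*Lgals3* had an r of 0.46 and a rho of 0.42 with *Havcr1* in PKD kidneys (permutation test, p = 0.137 and 0.176, adjusted p = 0.182 and 0.235), and r was 0.36 without 2 kidneys. In PKD + Salsalate kidneys they were 0.89 and 0.92 (permutation test, p = 7.0e-05 for both, adjusted p = 0.0004 and 0.00028), and r was 0.88 without 2 kidneys. With *Ptprc* the r of *Lgals3* was −0.04 and rho 0.11 in PKD kidneys (permutation test, p = 0.907 and 0.735, adjusted p = 0.907 and 0.735), and r was 0.61 without 2 kidneys. In PKD + Salsalate kidneys it was 0.57 and rho 0.52 (permutation test, p = 0.0523 and 0.0869, adjusted p = 0.0836 and 0.139), and r was 0.31 without 2 kidneys. The differences between these correlations were not tested. No other marker was set beside *Havcr1*, so whether the relation is particular to these genes was not tested either.

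**Figure D5:**
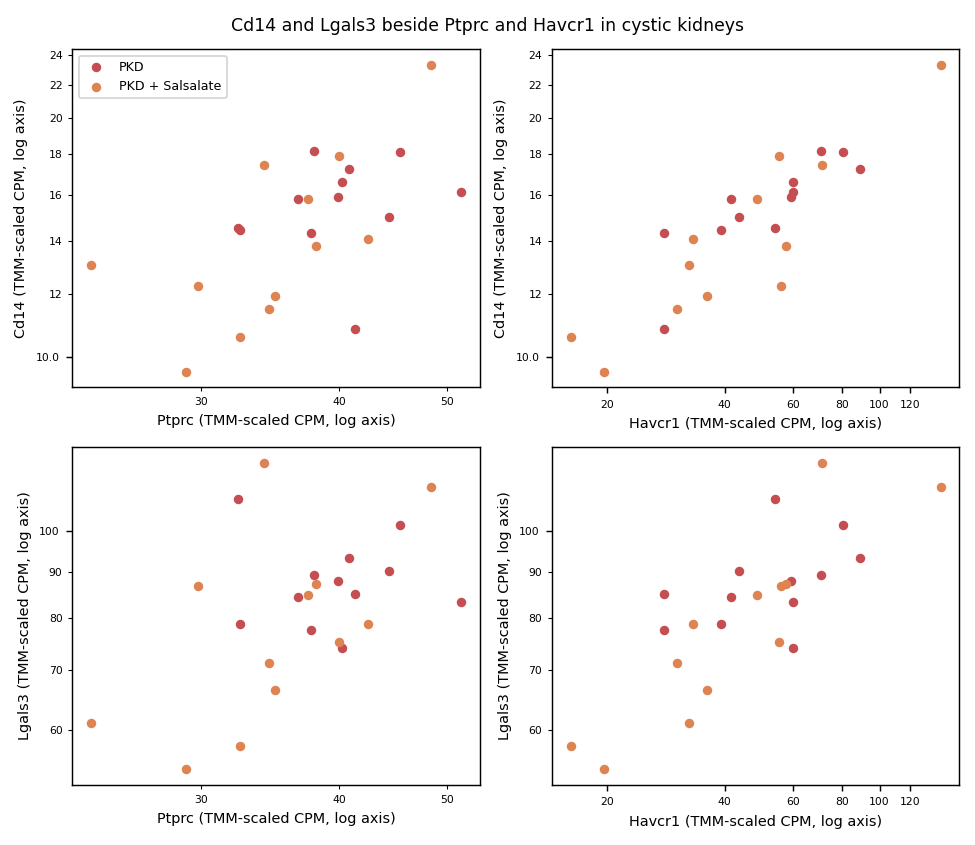
Each point is 1 of the 24 cystic kidneys, with *Cd14* (top) or *Lgals3* (bottom) against *Ptprc* (left) or *Havcr1* (right), all in TMM-scaled CPM on log axes. The points of *Cd14* against *Havcr1* rise together in both groups (r of 0.84 and 0.89), and the kidney farthest right in each *Havcr1* panel, with 144 CPM of *Havcr1*, is PKD + Salsalate 11.

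Other genes of the same cells and of the signals that call them were read from further lists. Of 10 genes of complement C1q and resident macrophages, 9 were tested and 7 were higher in PKD, among them *Siglec1*, the receptor sialoadhesin (log2 fold change 2.37), and *C1qa*, *C1qb* and *C1qc*, the chains of complement C1q (1.23 to 1.38). *Folr2*, a folate receptor of resident macrophages, was not called (0.23). Of 11 myeloid growth factors and chemoattractants, 6 were tested, 5 were higher and 1 was lower. The growth factors *Csf1* and *Il34*, both ligands of the *Csf1r* product, were higher by 1.12 and 1.16. *Ccl2*, the ligand of the *Ccr2* product, went from 0.472 ± 0.0980 CPM to 3.64 ± 0.842 CPM (log2 fold change 2.95). At so low a wildtype level, a higher level in the cystic groups was a condition of the *Ccl2* test. *Cxcl1*, which attracts neutrophils, was higher by 2.23, and *Cx3cl1*, the ligand of the *Cx3cr1* product, by 1.02. *Cxcl12* was lower (−0.51). Of the leukocyte adhesion ligands, *Icam1* (0.88) and *Vcam1* (1.71) were higher and *Icam2* was not called (0.03).

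Lists of lymphocytes and granulocytes gave few tested genes. Of 16 further T and natural killer cell genes 3 were tested, with log2 fold changes of 0.01 to 0.44 that did not pass, and 1 had an unadjusted p under 0.05 by edgeR. Among B and plasma cell genes *Pax5*, a transcription factor needed for B cell identity, was lower (−0.98). Between the wildtype sets, *Pax5* was higher in the R set by 1.21 on the log2 scale (edgeR adjusted p = 0.00866). Of 7 neutrophil genes only *Csf3r*, the receptor for granulocyte colony-stimulating factor that monocytes also express, was tested, and it was higher (1.27). *Ms4a2*, a chain of the immunoglobulin E receptor, was the only mast cell gene tested and was higher (1.75). No wildtype kidney held more than 1.52 CPM of the listed mast cell genes together, so a higher level in the cystic groups was a condition of its test. Between the wildtype sets, *Ms4a2* was higher in the R set by 1.03 (edgeR adjusted p = 0.00868). All 4 red cell genes were lower in PKD, and their summed level was 253 to 787 CPM in wildtype and 54.8 to 165 CPM in PKD kidneys. The part of blood left in the kidneys in the leukocyte values was not tested.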

How the data were processed

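Poly(A)-selected directional RNA-seq was done on 32 mouse kidneys. The authors trimmed reads with cutadapt 2.10, aligned them to GRCm39 with STAR 2.7.5a, counted reads per gene with HTSeq 0.12.4 and deposited raw counts per gene. Reads that HTSeq assigned to no gene were kept out of library sizes, and 73.6% to 83.1% of each library's reads lay on genes. Of the 53700 gene identifiers, 52610 were found in the GENCODE M39 annotation, from which symbols, positions and promoters were taken.

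Genes over a log2 CPM of 1 in at least 8 kidneys (25%) were kept, which left 13961. Levels are TMM-scaled CPM. All 3 groups entered 1 fit of edgeR 4.0.16 (quasi-likelihood test, no covariates, R 4.3.3), with Benjamini-Hochberg adjustment over all tested genes and a threshold of 0.05. Alternatives were DESeq2 1.42.0 (size factors, Wald test), other filters, only the groups compared, a replicate block, each set of wildtype libraries and leaving out each kidney. Settings that combined no filter with a set of libraries, or left out PKD 10 and PKD + Salsalate 3 and 11 together, were chosen after seeing the data. Correlations used log2 CPM with a prior count of 2 and 2-sided permutation tests with 100000 permutations. The fit was checked on simulated counts.

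Up to 4 markers per role with the smallest p in PKD against wildtype and the 4 with the smallest p in PKD + Salsalate against PKD are given with full statistics, and other markers with fewer values. In further lists the called genes with the 3 largest changes were to be named, along with *Havcr1*, *Lcn2* and *Alb*. Other genes of those lists that the text names were chosen after their values were seen. The members, the lists and the wildtype sets were chosen with earlier results of these data known. Each sample is taken as 1 mouse as the labels number them. Some items are not reported here.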

Additional observations from a re-analysis of the deposited data

Results flagged for a closer look

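In 4 of the 34 markers 1 wildtype kidney stood far above the other 7, by Dixon's test at its 95% critical value. *Ms4a7* was at 3.62 CPM in wildtype 3, and the next kidney was at 1.61 CPM. *Ly86* was at 9.05 CPM in wildtype 3, against 5.78 CPM in the next. *Lyz2* was at 44.4 CPM in wildtype 3, against 29.7 CPM in the next. *Cd14* was at 9.04 CPM in wildtype 5, against 6.35 CPM in the next. Chance alone flags about 1 in 20 groups. Wildtype 3 was also the wildtype kidney with the most markers at their highest level, 21 of 34, and groups of 12 were not examined in this way. For *Ly86*, *Lyz2* and *Cd14* that kidney still lay below the lowest PKD kidney, and for *Ms4a7* it did not.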

How the results depend on the processing

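In PKD against wildtype, 31 markers were called and the count ran from 31 to 33 with 1 kidney left out and from 28 to 36 under the other settings, with 26 markers called in every setting. The share of all genes called in every setting was not calculated. In PKD + Salsalate against wildtype, where 29 were called, these ranges were 27 to 30 and 26 to 31. In PKD + Salsalate against PKD, where none was called, the count was 1 without a filter (*Arg1*, lower, which rests on PKD 10), 1 with PKD 10 and PKD + Salsalate 3 and 11 all left out (*Gpnmb*), and 0 to 1 with 1 kidney left out (*Ly86*, without PKD + Salsalate 11). With the replicate block the counts were 31, 0 and 28. Replicate numbers did not pair the kidneys, since correlations of same-numbered kidneys ran from −0.55 to 0.47 and exceeded 0.1 in 3 of 8, 3 of 8 and 2 of 12 pairs.

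Directions turned for *Aif1* (−0.10 against the R set, −0.0625 with no filter as well), for *Cd79b* (0.0154 against the other wildtype set, 0.00739 with no filter as well) and for the correlation of *Lgals3* with *Ptprc* in PKD kidneys (r of 0.00392 with DESeq2 size factors). With 1 kidney left out, 5 markers of PKD + Salsalate against PKD turned from below to above 0, reaching 0.0246 for *Adgre1*, 0.0218 for *Csf1r*, 0.0109 for *Spi1*, 0.00784 for *Cx3cr1* and 0.00337 for *Coro1a*, and *Aif1* in PKD + Salsalate against wildtype reached −0.0251. None of these values passed a test, and the cause was not tested. Without 2 kidneys that r was 0.61 under TMM and −0.09 under DESeq2 size factors, so it gives no direction. Over the 38 single values examined under every setting and 1656 recalculations, 1631 kept direction and side of the threshold, 12 passed it newly, 9 lost it and 4 turned. Markers under about 2 CPM rest on few counts, and the age and tamoxifen differences between wildtype and PKD cannot be told apart from the deletion.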

Other observations

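Of 7 dendritic cell genes 4 were tested, and 2 rose in PKD relative to wildtype, *Cd209a*, a lectin of monocyte-derived dendritic cells (log2 fold change 1.14), and *Flt3*, the receptor of the dendritic cell growth factor (0.57). All 5 fibroblast genes were higher, with *Col1a1*, the main chain of type I collagen, at 2.32, and their summed level was 205 to 299 CPM in wildtype and 489 to 896 CPM in PKD kidneys. All 6 injured tubule genes were higher, where 24.1% of all tested genes were. They were led by *Havcr1* (5.90), *Lcn2*, a siderophore-binding protein (4.68), and *Krt20*, a keratin (4.57). At the low wildtype level of *Havcr1*, a higher level in the cystic groups was a condition of its test.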
